A study of Allium sativum with 42 samples.

Results

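Bulbs of garlic (Allium sativum, cultivar Ershuizao) sampled at 217 days were compared with bulbs sampled at 212 days, 3 libraries at each age. The genes compared were those with at least 1 FPKM (mapped fragments scaled to transcript length and to the library's size) in at least 3 of these 6 libraries, which held for 27636 of the 58219 gene IDs in the table. The study sequenced 42 libraries from field-grown plants, 3 for each of 8 bulb ages between 192 and 227 days and for buds, leaves, pseudostems, garlic sprouts, roots and flowers. The labels give an age of 10 days for buds, 212 days for leaves, pseudostems, sprouts and roots, and 217 days for flowers. Per the labels, the bulb series ran from before bulb expansion until expansion had ended, so that 212 and 217 days are the fifth and the sixth samplings, and both groups share cultivar, field and season. No treatment or genetic change is labelled. The labels do not say whether the 3 libraries of an age came from separate plants. P-values therefore measure the spread between libraries of the same group, which may be technical. The table does not pair IDs with gene names. Genes are therefore given by ID, no functional groups or tissue markers by name could be described, and the labelled tissue could not be checked against named markers.

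A garlic bulb is a cluster of cloves, each a swollen lateral bud whose storage leaf fills with fructans and with sulfur compounds such as alliin. Above the bulb, the sheaths of the foliage leaves roll into the pseudostem, which softens as the bulb matures and carries assimilates down from the leaf blades. Bulb tissue and leaf sheath adjoin at the neck of the plant, and roots arise from the basal plate beneath the cloves.

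The 6 libraries were unequal. Read totals recovered from the FPKM values lay between 12.83 M in replicate 2 of the 217-day bulbs and 25.51 M in replicate 3 of the 212-day bulbs, and the other 4 lay between 21.78 and 24.42 M. The 212-day libraries resembled each other closely, with correlations of log2(FPKM + 1) across the tested genes from 0.974 to 0.982, while those between 217-day libraries ran from 0.931 to 0.945. These correlations are across genes, which are not independent replicates. Between 2 libraries of 212 days, 457 to 972 genes differed by at least 1 on the log2 scale, against 2769 to 4520 between 2 libraries of 217 days. The median SD per gene was 0.18 at 212 days and 0.334 at 217 days (log2 scale, n = 3 each). The limma fit used below pools the spread of a gene over all bulb ages, so its p-values do not reflect this inequality. Replicate 1 at 217 days stood nearest to the 212-day bulbs, with 1924 to 2704 genes differing by at least 1 from each of them, against 4538 to 5604 for replicates 2 and 3. Replicate 2 stood nearest of the 6 to pseudostem, root, leaf and flower and farthest from bud. With sprout it had the same correlation as replicate 1 (0.817), the highest of the 6. Its correlation with leaf was 0.744, against 0.681 and 0.687 for replicates 1 and 3. The correlation of replicate 2 with the mean pseudostem profile was 0.857, against 0.785 and 0.791 for replicates 1 and 3 and 0.739 to 0.747 for the 212-day libraries. Its correlation with the bud profile was 0.775, against 0.805 to 0.852 for the others. Replicate 3 differed in its most abundant transcripts, as described further on. The results are therefore also given without these libraries.

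Between 212 and 217 days, 637 genes rose and 526 fell. A gene was called where its log2 difference was at least 1 with an adjusted p below 0.05 (limma fit of the 24 bulb libraries, Benjamini-Hochberg adjustment over all 27636 genes), so that 2.30% of the genes tested rose and 1.90% fell. The median difference of all tested genes was 0.01. Most changes were modest: the median size was 1.39 for rises, with a middle range from 1.15 to 1.74, and 1.56 for falls, with a middle range from 1.26 to 2.01. The steepest changes were falls, since 37 genes fell and 8 rose by 3 or more (log2), and 10 fell and 0 rose by 4 or more. All 3 libraries at 217 days lay above all 3 at 212 days for 628 of the 637 risen genes, and below them for 510 of the 526 fallen genes. Over all tested genes, 16.8% had non-overlapping libraries with 217 days higher and 12.9% with 217 days lower. The same 6 libraries chose the lists, so the lack of overlap largely follows from the choice and is no test. In bulk libraries such as these, fewer cells of one kind and less RNA per cell cannot be told apart.

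**Figure D1:**
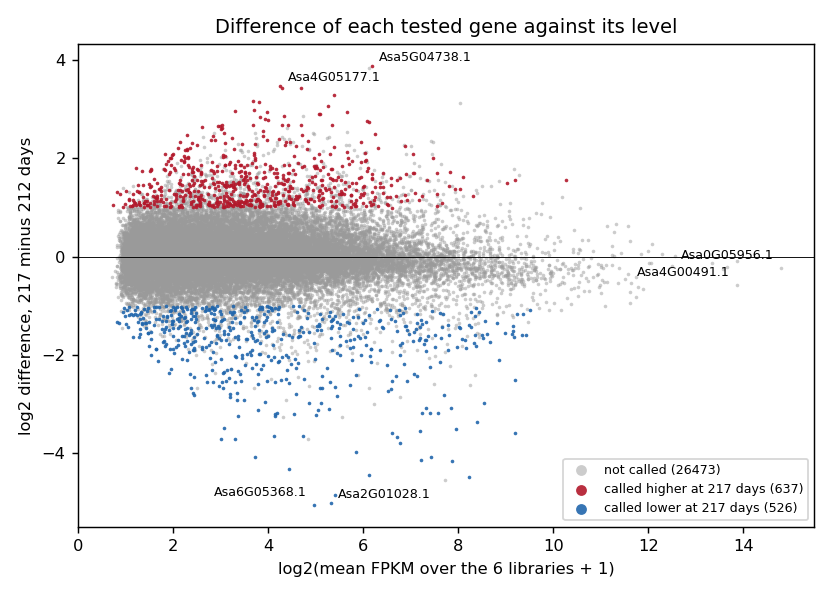
Each point is a tested gene, with its level as log2 of the mean FPKM over the 6 libraries plus 1 on the x axis and its log2 difference, 217 minus 212 days, on the y axis. Red points are the 637 genes called higher, blue points the 526 called lower and grey points those not called, and falls reach further from 0 than rises.

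The counts leaned on single libraries. Without replicate 2 at 217 days 166 genes rose and 147 fell, of which 149 and 130 were among those called with all libraries. Without replicate 3 at 217 days 515 rose and 226 fell, and without replicate 1 931 rose and 992 fell. On the 212-day side, leaving out replicate 1 gave 149 rises and 106 falls, leaving out replicate 2 gave 170 and 125, and leaving out replicate 3 gave 487 and 398. With replicates 2 and 3 at 217 days both left out, a choice made after the data were seen, limma called 0 genes in either direction, with the lone 217-day library assumed to vary like the other groups, while 2375 genes had an unadjusted p below 0.05. A library outside the comparison also mattered, because the spread was pooled over all bulb ages: without replicate 2 of the 227-day bulbs 967 genes rose and 710 fell. The fit of the 6 libraries alone gave 536 and 428, of which 373 and 296 were called in both fits.

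**Figure D2:**
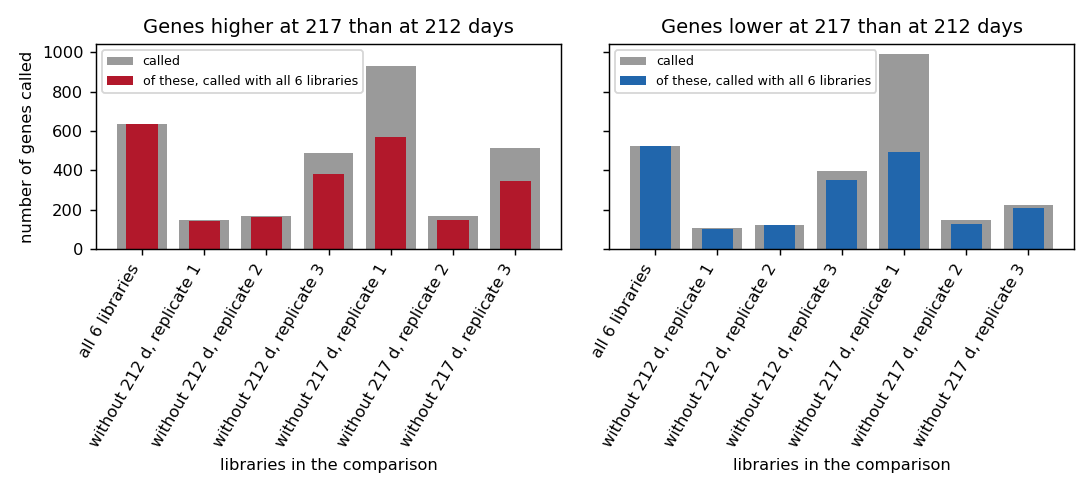
Bars give the number of genes called higher (left) and lower (right) at 217 than at 212 days with all 6 libraries and with each of them left out in turn. The narrow coloured bars give how many of those genes were also called with all 6, and the counts were lowest without replicate 1 at 212 days (149 and 106).

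Rises and falls were spread differently over expression levels. Of the 1746 genes with a mean of 100 to 1000 FPKM over the 6 libraries, 5.5% fell and 1.6% rose. Of the 6289 genes between 20 and 100 FPKM, 1.75% fell and 2.89% rose, and of the 9661 genes under 5 FPKM 1.49% fell and 1.73% rose. Among the 110 genes above 1000 FPKM 1 rose and 0 fell by limma. The fallen genes went from 4.51%, 4.41% and 3.55% of summed FPKM in the 212-day libraries to 2.01%, 0.941% and 1.08% in the 217-day libraries. The risen genes went from 0.711%, 0.754% and 0.803% to 1.75%, 2.94% and 2.53%. These shares describe the lists and are no test, since the same libraries chose the genes. Hardly any gene went from no reads to many, as 2 risen genes had no read in any 212-day library and 2 fallen genes had none in any 217-day library.

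Asa5G04738.1 showed the largest rise under the naming rule, which asked for a call, a mean of at least 10 FPKM at the higher age and libraries that do not overlap. It stood at 6.72, 10.6 and 5.08 FPKM at 212 days and at 55.5, 185.0 and 165.6 FPKM at 217 days. The 217-day libraries were all higher, replicate 1 least so. On the log2(FPKM + 1) scale the difference was 3.88 ± 0.88 (SE, limma, adjusted p = 0.0153). The difference was 3.84 (adjusted p = 0.0672) when replicate 1 at 212 days was left out and 3.57 (0.0763) when replicate 2 at 217 days was. At 222 days the gene was back at 13.9 ± 17.2 FPKM (SD, n = 3), with libraries from 0.544 to 33.3, and it averaged 33.7 ± 20.1 FPKM at 227 days. Its mean was higher than at any bulb age in root (1630 ± 189 FPKM), pseudostem (733 ± 234), leaf (241 ± 74.4) and flower (238 ± 44.2), and lower than at 217 days in sprout (30.5 ± 20.2) and bud (5.26 ± 4.37).

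Asa4G05177.1, the second rise, stood at 1.83, 2.28 and 0.782 FPKM at 212 days and at 10.8, 65.0 and 27.8 FPKM at 217 days. The groups did not overlap, and replicate 2 at 217 days was the highest. Its log2 difference was 3.47 ± 0.53 (SE, limma, adjusted p = 0.00312). It averaged 6.29 ± 3.07 FPKM at 222 days and 14.5 ± 6.59 FPKM at 202 days. Among the other organs it was most abundant in pseudostem, at 109 ± 22.8 FPKM.

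Asa6G05368.1 showed the largest fall. It stood at 92.4, 60.9 and 25.3 FPKM at 212 days and at 2.23, 0 and 0.30 FPKM at 217 days, which rested on 15, 0 and 2 reads. The log2 difference was -5.05 ± 0.75 (SE, limma, adjusted p = 0.00281). Its mean was 5.55 FPKM or lower in all other groups of the study, so that 212-day bulbs were the one group with a high level. At 207 days it averaged 4.71 ± 6.84 FPKM and at 222 days 3.62 ± 4.29 FPKM.

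Asa2G01028.1, the second fall, stood at 97.5, 102.4 and 30.5 FPKM at 212 days and at 1.25, 0.701 and 1.47 FPKM at 217 days. The groups were far apart, with 171 to 549 reads per library at 212 days and 2 to 7 at 217 days. The log2 difference was -5.01 ± 1.13 (SE, limma, adjusted p = 0.0147), and the call, though not the size of the difference, was lost in other settings. With the first 212-day replicate left out the difference was -4.75 (adjusted p = 0.0739), with the second left out -4.72 (0.0693), and with the second 217-day replicate left out -4.86 (0.0658). Voom on recovered reads gave -5.71 (0.125). This gene varied widely within other bulb ages. It ranged from 4.71 to 76.3 FPKM at 192 days, from 0.541 to 32.3 FPKM at 207 days and from 1.85 to 31.2 FPKM at 222 days.

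**Figure D3:**
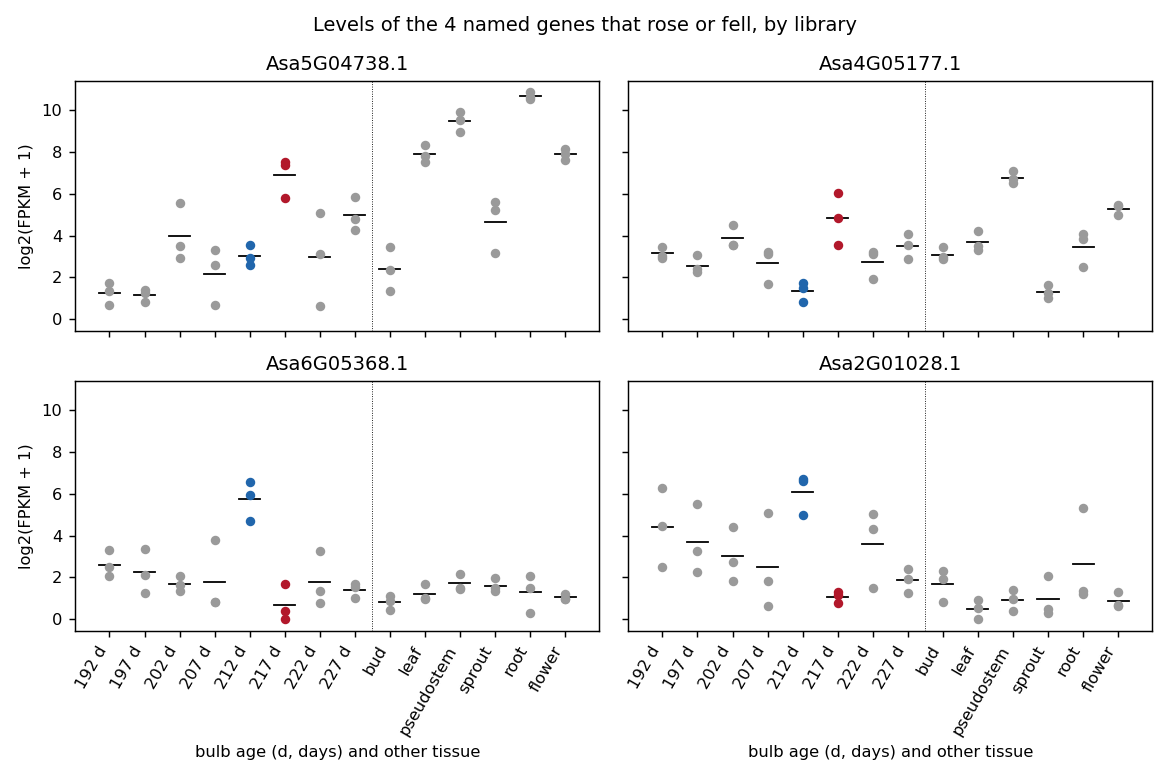
Each panel gives log2(FPKM + 1) of 1 gene in every library, by bulb age in days and then by organ, with a bar at the mean of each group of 3. Blue points are 212-day and red points 217-day bulbs: the upper 2 genes are low at 212 days and high in pseudostem, and the lower 2 are high at 212 days and low at 217 days.

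The 2 most abundant genes that were not called show how unequal the 217-day libraries were. Asa0G05956.1 stood at 24090, 30230 and 23470 FPKM at 212 days and at 12690, 12040 and 68210 FPKM at 217 days. Replicates 1 and 2 were below, and replicate 3 above, every 212-day library. The mean FPKM was thus higher at 217 days, at 30980 ± 32240 against 25930 ± 3734 (SD, n = 3 each), while the mean of the log2 values was lower, with a difference of -0.24 ± 0.77 (SE, limma, adjusted p = 0.884). Replicate 3 came close to the 222-day mean of 78170 ± 8186 FPKM and lay within the flower range of 61140 to 74350 FPKM. Asa4G00491.1 went the other way, at 17260, 18010 and 17580 FPKM at 212 days and 15730, 13890 and 7674 FPKM at 217 days. Its lowest value, again in replicate 3, was near the 222-day mean of 7908 ± 1350 FPKM, and its log2 difference was -0.57 ± 0.27 (adjusted p = 0.202).

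The share of the transcript pool held by the 100 most abundant genes followed the same split. It was 25.8%, 27.1% and 24.8% at 212 days and 22.1%, 21.3% and 34.5% at 217 days, so that replicates 1 and 2 lay below and replicate 3 above the 212-day range. The means were 25.92% ± 1.15 and 25.97% ± 7.36 (SD, n = 3 each), and a 2-sided exact permutation test gave p = 1.0, where 0.1 is the smallest value that 3 against 3 allows. Without replicate 3 at 217 days the difference was -4.19 percentage points. The number of genes with at least 1 FPKM was 26728, 27035 and 27178 at 212 days and 27573, 27611 and 25819 at 217 days. Here too replicate 3 stood below and the others above the 212-day range. The difference in means was 21 genes (exact permutation p = 1.0), and it was 54 with all libraries thinned to 12.83 M reads and 612 without replicate 3 at 217 days.

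The levels of both lists were also followed over the other bulb ages, whose libraries gave no fold to the choice of genes but shared in the estimate of the spread behind it. The level of a gene at an age was its log2(FPKM + 1) averaged over the 3 libraries. Risen genes had median levels of 2.99, 2.89, 3.46 and 3.09 at the 4 ages from 192 to 207 days. At 222 and 227 days the medians were 2.96 and 3.21. The ages that chose the genes gave 2.57 (212 days) and 4.07 (217 days). By library, replicate 3 at 222 days had a median of 2.55, within the 212-day range of 2.50 to 2.65. By age the 212-day level was below, and the 217-day level above, that of every other bulb age, which the choice of genes favours. The fallen genes mirrored this, with 4.29 falling to 2.47 between the compared ages, against 3.60, 3.28, 3.14 and 3.25 from 192 to 207 days and 3.14 and 2.53 at 222 and 227 days. Over all tested genes the median stayed between 2.92 and 3.26 at all 8 ages.

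**Figure D4:**
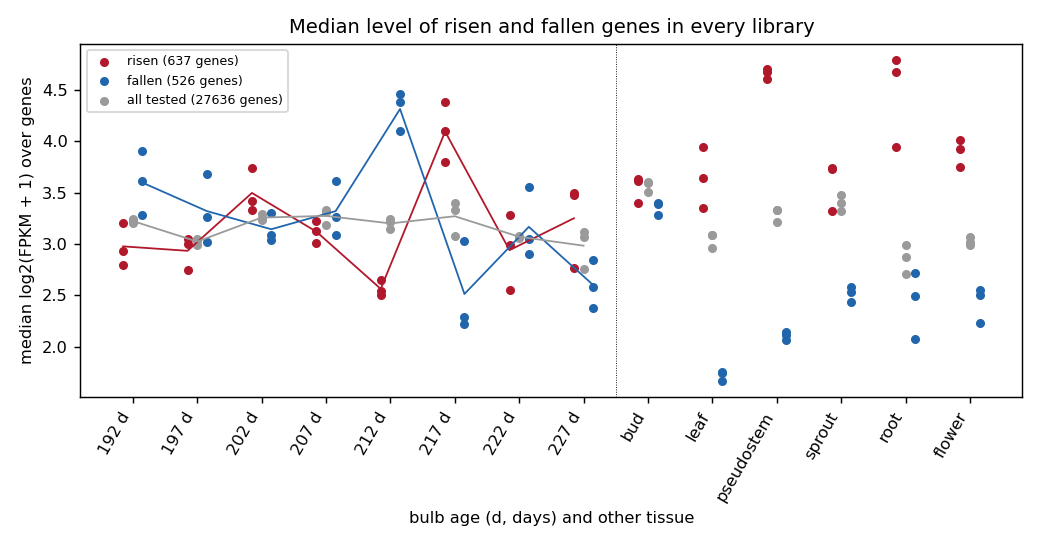
Points give the median log2(FPKM + 1) over the 637 risen genes (red), the 526 fallen genes (blue) and all 27636 tested genes (grey) in each of the 42 libraries, by bulb age in days and then by organ, and lines join the means of the 3 bulb libraries of an age. The red line lies above the blue one at 202, 217 and 227 days and below it at the other ages. The step from 212 to 217 days is the one that chose the genes. In pseudostem the risen genes lie near 4.7 and the fallen genes near 2.1.

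Among the 6 bulb ages outside the comparison, 282 of the 637 risen genes (44.3%) had their highest mean at 202 days, against 18.7% of all tested genes, and 159 (25.0%) at 227 days, against 13.4%. Of the 526 fallen genes, 239 (45.4%) were highest at 192 days, against 29.1% of all tested genes, and 148 (28.1%) at 222 days, against 12.3%. Risen genes thus most often had their highest mean at 202 and 227 days, and fallen genes at 192 and 222 days. Neither pair is of neighbouring samplings. The median level of the risen list was also highest at 202 (3.46) and 227 days (3.21) among these ages. That of the fallen list was 3.14 at 222 days, below 3.60, 3.28 and 3.25 at 192, 197 and 207 days. By library the fallen list stood at 3.05, 2.90 and 3.55 at 222 days, highest in replicate 3. The 89 genes that rose by 2 or more, picked out after the data were seen, had medians of 1.51, 1.35, 2.96, 2.08, 1.78, 4.35, 2.58 and 2.79 over the 8 ages in order. The 136 genes that fell by 2 or more had medians of 3.52, 2.89, 3.22, 3.10, 5.07, 2.57, 3.61 and 2.46. In both series the step from 212 to 217 days is set by that choice.

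Bulbs at 222 days were compared with bulbs at 207 days, whose libraries gave no fold to the choice of genes. They did enter the pooled spread, so that genes varying widely at these ages were less likely to be listed and the counts are not independent of the choice. Of the 637 risen genes, 11 were called higher and 37 lower at 222 days (limma, same fit), where 2.24% of all tested genes were higher and 8.50% lower. Their median difference was -0.07, against -0.24 over all genes. Of the 526 fallen genes, 48 were called higher and 133 lower, with a median of -0.04. In this fit the fallen list had larger shares than all tested genes in both directions, and the risen list smaller ones. The counts of the risen list changed with scaling: median-of-ratios scaling, which moved the median of all genes to 0.04, called 31 risen genes higher and 13 lower. For the fallen list this scaling gave 62 higher and 115 lower. Calls over all tested genes between these ages were not counted under that scaling, so its counts have no background beside them. The fallen genes that were called without replicate 3 at 217 days, 226 in all, gave 31 higher and 40 lower, with a median of 0.13.

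Levels in the other organs differed between the 2 lists. Risen genes had a median log2(FPKM + 1) of 4.68 in pseudostem, 4.47 in root, 3.84 in flower, 3.63 in sprout, 3.62 in leaf and 3.50 in bud, where all tested genes lay between 2.83 and 3.56. Fallen genes had medians of 1.76 in leaf, 2.05 in pseudostem, 2.43 in flower, 2.47 in root, 2.51 in sprout and 3.34 in bud. To set this against bulbs without the 212-day and 217-day libraries, each organ was compared with 207-day bulbs (limma fit of those 21 libraries). This comparison was chosen after the data were seen. The growth protocol gives leaves, pseudostems, sprouts and roots a harvest date matching the 217-day bulbs, and flowers are labelled 217 days. No organ was sampled with the 207-day bulbs, so organ and sampling date cannot be told apart here.

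Of the 637 risen genes, pseudostem had 329, or 51.6%, that were called higher there than in 207-day bulbs, against 14.2% of all tested genes, with a median difference of 1.13. In root the share was 47.1% against 13.4% of all genes, and the median was 0.88. In flower it was 34.7% against 8.15%, in leaf 32.7% against 14.7%, in sprout 25.4% against 11.2% and in bud 15.9% against 10.2%. Fallen genes were often lower in the organs other than bud. In leaf 54.6% of the 526 were called lower than in 207-day bulbs, against 25.0% of all tested genes, in pseudostem 46.4% against 15.8%, and in sprout 41.8% against 10.9%. In root the share was 44.9% against 30.4%, and in flower 43.9% against 16.3%. Bud differed, as 11.2% of the fallen genes were called lower there, against 4.06% of all tested genes, but 20% were called higher, against 10.2%, and the median difference was 0.09. Fallen genes called higher also exceeded all tested genes in root (18.1% against 13.4%) and flower (10.5% against 8.15%). They did not in leaf (10.5% against 14.7%), pseudostem (7.98% against 14.2%) and sprout (7.6% against 11.2%).

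**Figure D5:**
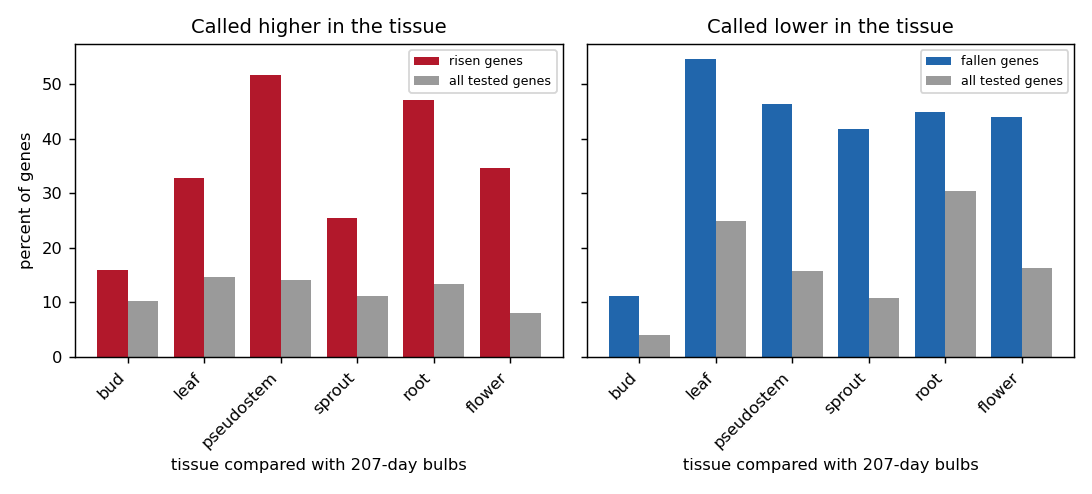
Bars give the percent of genes that limma called higher (left, risen genes in red) or lower (right, fallen genes in blue) in each organ than in 207-day bulbs, beside the same percent of all tested genes in grey. The coloured bar exceeds the grey one in all 6 organs on both sides, and among risen genes pseudostem (51.6%) and root (47.1%) are highest.

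Replicate 2 at 217 days stood highest over the risen genes that were higher in pseudostem. Over the 329 risen genes that were higher in pseudostem, its median difference from the 212-day mean was 2.09, against 1.13 and 1.44 in replicates 1 and 3. Over the other 308 risen genes the 3 values were closer, at 1.08 in replicate 1, 1.38 in replicate 2 and 1.34 in replicate 3. Replicate 2 itself shared in choosing the risen genes, so its lead may be partly set by that choice and is no test. Of the 166 genes that rose without replicate 2, 34.3% were higher in pseudostem, with a median of 0.44, and a close share of 33.7% in root, with a median of 0.17. Without replicate 3 the share for pseudostem was 49.9% of 515 genes, and without replicate 1 it was 52.7% of 931. The fallen genes were split in another way: those lower in pseudostem, 244 in all, had medians of -0.77 in replicate 1, -1.95 in replicate 2 and -1.69 in replicate 3, and the other 282 had -1.44, -1.71 and -1.87.

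Genes elevated in 1 organ over each of the 5 others (limma, same call rule) were also listed, without any bulb library and after the data were seen. Of 222 pseudostem-elevated genes 129 passed the filter of the comparison, and 26 of these (20.2%, against 2.30% of all tested genes) rose and 1 (0.775%, against 1.90%) fell, with a median difference of 0.80. Genes that passed through their 217-day values alone are among the 129, so the count is a description. The 222 genes held 0.673%, 0.749% and 0.663% of summed FPKM at 212 days and 0.962%, 1.75% and 0.733% at 217 days, against 3.42% to 4.85% in pseudostems. Replicate 2 at 217 days was thus the highest of the 6, and replicate 3 lay within the 212-day range. Between 33 and 35 of these genes had no read in each 212-day library, and 29, 19 and 29 had none in the 217-day libraries. The part of pseudostem RNA in the bulb libraries was not tested. Without replicate 2 at 217 days 2 of the 129 rose, with a median of 0.46. Leaving out replicate 3 of that age gave 19 rises with a median of 0.99, and leaving out replicate 1 gave 38 with a median of 0.92. For the 212-day replicates 1, 2 and 3 the numbers of rises were 8, 4 and 10. The same 6 fits called 166, 515, 931, 149, 170 and 487 rises over all tested genes, in the order given.

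Of the other organs' genes, those of bud moved down and the rest had medians nearer to 0. The counts for these lists are descriptions too, since genes can pass the filter through their values at a single age. Of 966 tested root-elevated genes 53 (5.49%) rose and 60 (6.21%) fell, both above the shares of all tested genes, with a median of 0.21, and their share of summed FPKM was 5.26% to 6.06% at 212 days and 4.40% to 5.49% at 217 days. Leaf-elevated genes gave 11 rises (1.88%) and 12 falls (2.05%) among 584, near the shares of all tested genes, with shares from 0.735% to 0.820% at 212 days and from 0.666% to 0.952% at 217 days. Sprout-elevated genes gave 4 rises (1.71%) and 7 falls (2.99%) among 234. Flower-elevated genes gave 15 rises (3.66%) and 24 falls (5.85%) among 410, and their share was 22.6% in replicate 3 at 217 days, against 7.28% and 7.18% in replicates 1 and 2 and 10.4% to 13.4% at 212 days. The same list held 29.1% to 38.3% in 222-day bulbs and 33.7% to 44.9% in 227-day bulbs, against 29.3% to 35.8% in flowers. A high share is therefore not particular to flowers. Asa0G05956.1 belongs to that list. Of 2375 tested bud-elevated genes, 153 (6.44%) fell and 11 (0.463%) rose, with a median of -0.37. Their share was 15.5%, 13.6% and 14.6% at 212 days and 14.6%, 8.73% and 9.57% at 217 days, so that replicate 1 at 217 days stayed within the 212-day range. The decline was not particular to this step. The list held 30.1% to 34.7% in 192-day bulbs, 14.5% to 17.0% at 202 days and 5.29% to 8.73% at 222 days. In buds it held 26.8% to 29.0%. Without replicate 2 at 217 days 17 of the bud-elevated genes fell, without replicate 3 49 and without replicate 1 439, and 16, 33 and 90 fell without the 212-day replicates 1, 2 and 3. Over all tested genes these 6 fits called 147, 226, 992, 106, 125 and 398 falls.

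Called genes had called neighbours in the numbering of the IDs more often than the 2.30% and 1.90% of all tested genes that rose and fell; no test was run. Of 348 risen genes whose next consecutive number in the ID was also tested, 56 (16.1%) were followed by another risen gene and 5 (1.44%) by a fallen one. Of 295 such fallen genes, 51 (17.3%) were followed by a fallen and 1 (0.339%) by a risen gene. Whether the numbers follow gene order on a chromosome, and which neighbours are near-identical copies that share reads, is not given in the sources used here. The digit in the ID before the letter G made little difference: the share of risen genes ran from 1.92% to 2.79% over the 9 digits, and that of fallen genes from 1.49% to 2.41%.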

How the data were processed

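RNA-seq libraries of garlic were analysed from 1 deposited table. The authors' deposited values are FPKM, per the file, for 58219 IDs in 42 columns, each matched to 1 sample by its title, with 0 columns left over. The submitters' processing notes name Bowtie2 and RSEM. The sources used here state no versions, reference, annotation or handling of reads that match several genes. FPKM is relative to a library's mapped fragments, so a few very abundant genes lower all others. Per the labels' protocols, RNA was extracted and a library made separately for each sample.

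Groups came from the tissue and age labels and replicate numbers from titles. Leaves, pseudostems, sprouts and roots are labelled 212 days, while the growth protocol gives them a harvest date matching the 217-day bulbs. Log2(FPKM + 1) was fitted with limma 3.58.1 (R 4.3.3): means of 8 bulb ages, 24 libraries, 16 residual degrees of freedom, a variance trend and Benjamini-Hochberg adjustment. Fold changes on this scale understate those of low genes. Exact permutation tests used SciPy 1.17.1 in Python 3.11.15. Whole reads were recovered from the FPKM steps (all 45750 genes above 0, tolerance 0.001 reads) and served for depth, thinning and voom. Genes above 0 in few libraries give whole reads almost regardless of the data. The stricter check is therefore the 38950 genes above 0 in at least 10 libraries, all of which gave whole reads. The procedures were tested on simulated data. The closest replicates in the comparison still differed beyond sampling noise, at a chi-square of 16.27 per degree of freedom. Named genes were the 2 largest rises and falls by the rule in the text and the 2 most abundant genes not called. Members, lists and tests were chosen with earlier results of these data known. Lists by keyword were drawn up but could not be applied without gene names.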

Additional observations from a re-analysis of the deposited data

How the results depend on the processing

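The 637 rises and 526 falls stayed within 1.5 times of these counts in both directions with a pseudocount of 0.1 (600 and 434), no minimum FPKM (536 and 434), a minimum of 5 FPKM (513 and 427), median-of-ratios scaling (626 and 550), TPM (717 and 470), quantile normalization (621 and 597), the 6 libraries alone (536 and 428), robust empirical Bayes (626 and 518) and quality weights per library (857 and 494). The same held for voom on recovered reads, with 491 and 372, of which 420 and 338 were shared. Without replicate 2 at 227 days there were 967 rises and 710 falls, and with no minimum log2 difference 1233 and 771. Leaving out one library of the comparison gave 149 to 931 rises and 106 to 992 falls. Leaving out replicates 2 and 3 at 217 days together left 0 and 0 by limma, with 2375 unadjusted p-values below 0.05, and the named changes there were 2.79, 2.22, -4.04 and -4.92 (Asa5G04738.1, Asa4G05177.1, Asa6G05368.1 and Asa2G01028.1), with adjusted p of 0.558, 0.335, 0.299 and 0.417 from 1 library at 217 days. The labels give both ages the replicate numbers 1 to 3, but same-numbered libraries did not deviate together, with correlations of 0.038, -0.014 and -0.126. With the replicate block the 24 libraries gave 557 rises and 476 falls, and the 6 libraries alone 226 and 235. From 207 to 222 days the risen list had 31 genes higher and 13 lower after median-of-ratios scaling, where calls over all tested genes were not counted. The fallen list made without replicate 3 at 217 days gave 31 and 40 without that scaling. The difference in the share of the 100 most abundant genes ran from -4.19 to 2.38 percentage points and that in genes with at least 1 FPKM from -284 to 612 as single libraries were left out. The cause of these shifts was not tested. The low depth of replicate 2 at 217 days limits genes with few reads there.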
